A study of Homo sapiens with 79 samples.

Results

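Cone photoreceptors were examined in human retinal organoids, layered aggregates grown from pluripotent cells that resemble developing retina. The organoids came from H9, an established human embryonic stem cell line, carrying a GFP reporter at CRX. A cell was taken as a cone where at least 5 reads each were counted in at least 3 of the 7 genes ARR3, PDE6H, GUCA1A, MPP4, GNGT2, SLC24A2 and RD3, and at least 5 reads in fewer than 2 of the 3 rod genes NRL, GNAT1 and NR2E3. This rule selected 242 of 1976 cells (12.2%, exact binomial 95% interval 10.8 to 13.8%). Since measured reads chose the cells, the levels of these 10 genes in them are given as description.

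The organoids had been differentiated for 60, 90 or 200 days, dissociated, and captured without sorting on Fluidigm C1 chips, with 1 chip at day 60, 1 at day 90 and 2 at day 200, called chip a and chip b. All groups shared the same culture: Y27632 during the first 48 hours, and 10% foetal calf serum, T3 (the active thyroid hormone), taurine and retinoic acid from day 18 onwards. No untreated group, no second line and no second differentiation is labelled, and the labels tie no cell to an organoid. Full-length cDNA was made by SMART-Seq v4, and reads were counted per gene. By the study's methods day 90 was run first, with spike-in control RNA more concentrated than on the later chips. Its cells were kept up to a higher share of spike reads. At day 60 cells were kept down to a lower number of reads than on the other days. The part of these settings in the differences between ages was not tested. Each chip is 1 sample here: the 79 labelled samples are columns of the chips, 19 at day 60 and 20 on each of the others, and neither columns nor cells are replicate cultures. No test was therefore made. The spread between both day 200 chips is the only measure of error over samples, and every interval given covers the counting of reads or cells and nothing else, because these reads carry no molecular identifiers and PCR copies are counted again. In a list of 4 values the order is always day 60, day 90, chip a, chip b.

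Cones are the photoreceptors of daylight and colour vision. Light isomerises the chromophore of an opsin, a G protein (transducin) activates a phosphodiesterase, cyclic GMP falls, and cyclic-nucleotide-gated channels in the outer segment close. Guanylate cyclases with their activating proteins and arrestin then restore the dark state, and glutamate is released at a ribbon synapse. In the developing retina cones are among the earliest neurons to be born, under transcription factors that include OTX2, CRX, NEUROD1, THRB (a thyroid hormone receptor) and RXRG.

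CRX and OTX2 bind DNA with a TAATC core, and the 250 bases before the transcription start of 3 of the genes that define the cones are shown with their matches. The sequences are from RefSeq on GRCh38.p14, 5′ to 3′ on the strand of the gene, and capitals mark CTAATC or TAATCC on either strand, with overlapping matches joined. ARR3 (cone arrestin) is shown for its 3 matches, PDE6H (the inhibitory subunit of cone phosphodiesterase) for its 1 match, and GUCA1A (a guanylate cyclase activating protein) for its 2, 1 of which joins both motifs. Their windows are chrX:70268084-70268333 (plus strand), chr12:14972792-14973041 (plus) and chr6:42173114-42173363 (plus).

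ARR3: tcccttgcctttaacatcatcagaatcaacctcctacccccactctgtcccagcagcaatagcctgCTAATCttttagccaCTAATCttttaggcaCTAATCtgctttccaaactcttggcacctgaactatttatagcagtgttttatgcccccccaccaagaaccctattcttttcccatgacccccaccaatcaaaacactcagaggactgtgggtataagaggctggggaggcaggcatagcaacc
PDE6H: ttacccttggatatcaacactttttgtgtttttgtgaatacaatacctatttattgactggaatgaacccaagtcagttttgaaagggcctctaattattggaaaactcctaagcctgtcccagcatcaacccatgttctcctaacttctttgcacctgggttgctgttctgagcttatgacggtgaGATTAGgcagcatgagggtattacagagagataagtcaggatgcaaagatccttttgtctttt
GUCA1A: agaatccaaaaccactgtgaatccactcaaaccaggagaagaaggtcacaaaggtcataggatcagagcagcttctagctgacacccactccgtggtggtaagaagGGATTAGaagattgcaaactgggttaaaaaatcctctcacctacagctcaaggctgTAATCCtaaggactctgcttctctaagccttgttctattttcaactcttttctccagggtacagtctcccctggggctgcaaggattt

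In ARR3 the matches begin 184, 169 and 154 bases before the start. At least 3 separate matches stood in 26 of 27305 promoters of the table (0.0952%). One match or more was found in 4 of the 6 defining genes with an entry (ARR3, PDE6H, GUCA1A and MPP4), with none in SLC24A2 and RD3, against 8.82% of all promoters. By motif, CTAATC was present in 4.96% and TAATCC in 5.67% of all promoters. Among the outer segment and cilium genes described below, 6 of 15 with an entry held a match (PRPH2, TULP1, IMPG2, EYS, RPGRIP1 and CRB1), among the ribbon synapse genes 5 of 17, and among the glycolysis genes 0 of 20. These matches are descriptions of letters in a window, and binding was not measured.

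Cones made up 3.11% of the cells at day 60 (18 of 578, interval 1.86 to 4.88%), 20.1% at day 90 (133 of 661, 17.1 to 23.4%), 16.3% on chip a (58 of 356, 12.6 to 20.5%) and 8.66% on chip b (33 of 381, 6.04 to 11.9%). Both day 200 chips lay above day 60 and below day 90. The intervals of chips a and b did not overlap each other, but that of chip a overlapped that of day 90. Cones were spread over the chips: they were found in 11 of 19 columns at day 60, in all 20 at day 90 with 3 to 18 a column, and in 17 and 18 of 20 columns on chips a and b.

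**Figure D1:**
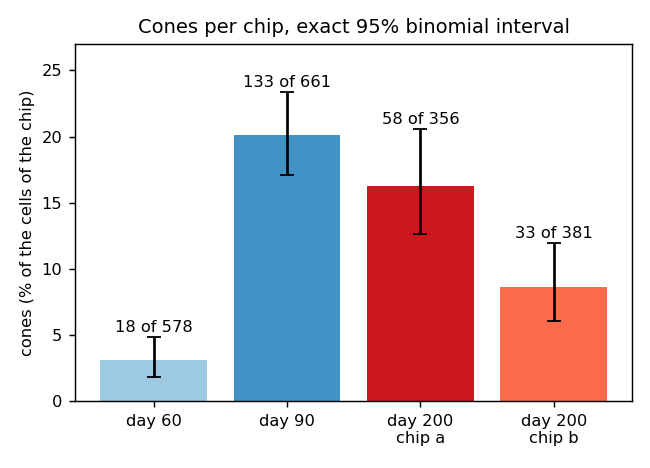
Share of cones among all cells of each chip, in percent. Bars are 1 chip each, with the number of cones and cells above them, and whiskers are exact binomial 95% intervals. The share is lowest at day 60 (3.11%) and highest at day 90 (20.1%), and chips a and b of day 200 stand at 16.3% and 8.66%.

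The threshold passed through a continuous range of cells. Exactly 3 markers were read in 70 cones, 4 in 60, 5 in 54, 6 in 41 and all 7 in 17, none of the last at day 60. Just outside lay 101 cells with 2 markers. Of genes the rule did not use, GNB3, a transducin subunit, stood at 572 CPM (the reads of a gene in the summed cells, with every sum of cells scaled to the same total) in cones with 3 markers and at 284 in the cells with 2. IMPG2, of the matrix around photoreceptors, was at 305 and 129.7, and RLBP1, of Müller glia, at 28.8 and 142. The median depth was alike (191652 and 192465 reads a cell). A further 49 cells (25 of day 90, 12 of chip a and 12 of chip b) had the cone markers together with at least 2 rod genes and were left out by the rule, and 75 cells had at least 2 rod genes without the cone markers. Of the cones themselves, 63 had 5 reads or more in 1 rod gene, in 50 of them NRL, which encodes the rod-determining transcription factor.

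Cones were sequenced somewhat more deeply than the other cells of their chip, with median totals of 234502 reads at day 60, 187506 at day 90, and 276284 and 271773 on chips a and b, against 162641, 155500, 248684 and 210711. Chip a stands apart in complexity: its cones had a median of 2416.5 genes with reads, against 4690.5, 4280 and 4039 in those of day 60, day 90 and chip b, at no lower depth. The other cells of chip a had a median of 2359, against 3788, 3547 and 3432.5, so the whole chip stands apart. The part of this in low levels and shares of chip a was not tested. The median mitochondrial share of reads in cones was 7.6% at day 60 and 3.43 to 4.42% on the other chips. The 40 row barcodes recur from column to column, 38 of them on all 4 chips, but none repeats within a column and no cell name occurs more than once. Scrublet marked 41 cells as doublets, 3 of them cones. It marked 1 of 661 cells at day 90, and was used only for an alternative.

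The cone genes of the rule were read at every age, and all but MPP4 were higher at day 200 than at day 60. Cone arrestin ARR3 stood at 102 CPM in day 60, 547 in day 90 and 2499 and 965 in day 200 (a, b) cones. PDE6H was at 292 CPM in day 60, 1846 in day 90 and 3257 and 2234 in day 200 (a, b) cones, and GUCA1A at 188 CPM in day 60, 609.7 in day 90 and 1482 and 1303 in day 200 (a, b) cones. These 3 genes and SLC24A2, the cone sodium, calcium and potassium exchanger (18.4, 80.5, 202 and 134 CPM in the same order), were more than 4-fold above day 60 on the log2(CPM + 5) scale on both day 200 chips. GNGT2, the gamma subunit of cone transducin (149, 388, 966 and 372 CPM), and RD3, which restrains guanylate cyclase (132, 291, 579 and 397 CPM), were also higher on both chips. MPP4, a scaffold protein of the photoreceptor synapse, stood at 198 CPM in day 60, 344 in day 90 and 127 and 295 in day 200 (a, b) cones.

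Single cones varied widely. ARR3 had a median of 60.9 CPM per cone at day 60, 58 at day 90, and 1746 and 100 on chips a and b. Quartiles were 22.3 and 4043 for chip a, and 0 and 1555 for chip b. At least 5 ARR3 reads were counted in 75.9% of the cones of chip a and 54.5% of chip b. PDE6H was the most widely read marker except on chip b, with reads in 77.8, 99.2, 100 and 90.9% of cones and in 3.75, 47.3, 47.3 and 24.4% of the other cells.

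**Figure D2:**
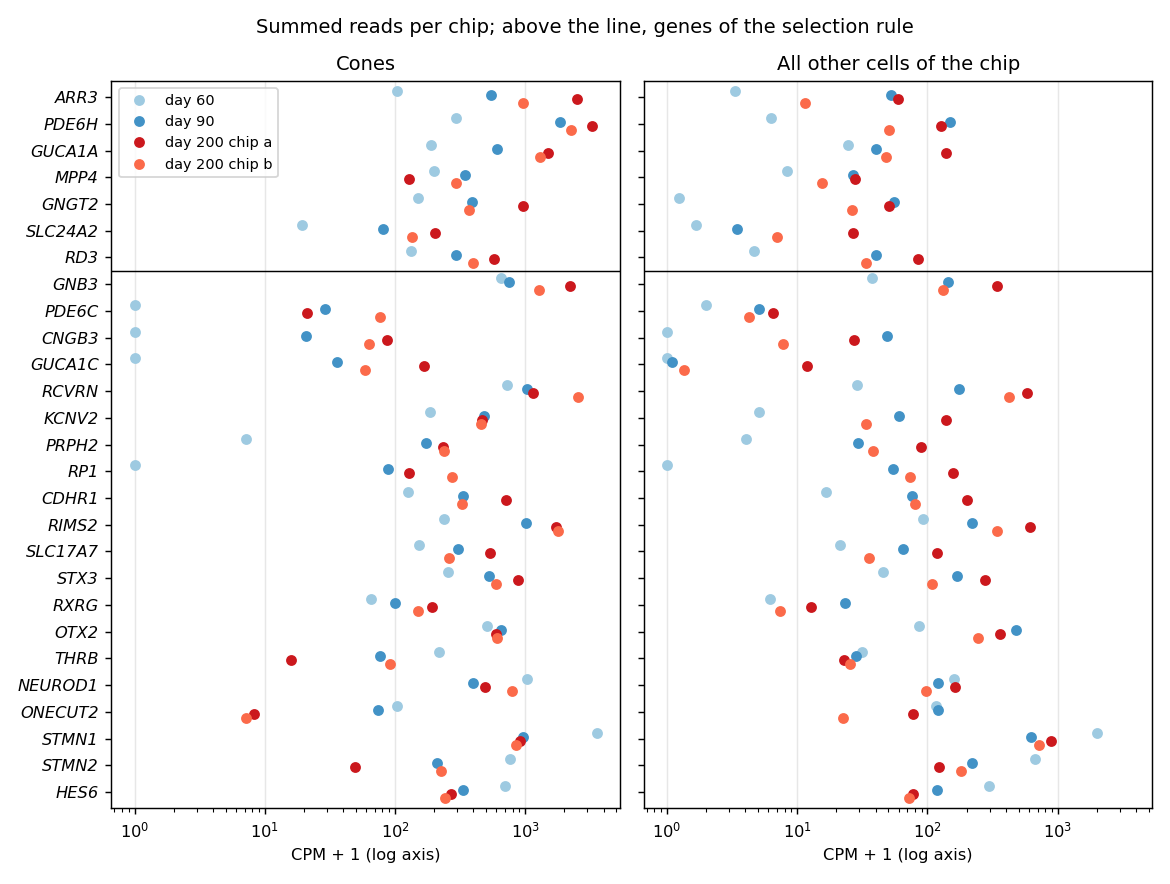
Level of each gene (CPM + 1, log axis) in the summed cones of each chip on the left and in all other cells of the same chip on the right. Points are 1 chip each, coloured by chip, and genes above the line are those of the selection rule. PRPH2 and RP1 are near 0 in day 60 cones (6.12 and 0 CPM) and at 87 to 272 CPM later, and STMN1 is highest at day 60 (3546 CPM).

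The question put to the ages is how far cones in these organoids acquire the genes of the mature cell. Among 8139 genes outside the rule with at least 20 CPM in the cones of a chip and reads in at least 20% of them, 205 (2.52%) were at least 4-fold higher on both day 200 chips than at day 60, and 120 (1.47%) at least 4-fold lower, on the log2(CPM + 5) scale, which understates the differences of low genes. Between day 60 and day 90, 383 genes (4.71%) were higher and 97 (1.19%) lower by this fold. From day 90 to both day 200 chips, 10 (0.123%) were higher and 33 (0.405%) lower. That comparison asked the fold of both day 200 chips, and the one between day 60 and day 90 of 1 chip only. Their counts are therefore unlike in measure and do not date the differences. Without regard to size, 37.7% of these genes stood above day 60 on both day 200 chips and 33.6% below, and of all genes in the table, read in cones or not, 22.8% above and 27.5% below. Of the genes at least 4-fold higher at day 200 than at day 60, 135 of 205 were already past the fold at day 90, and of the lower ones 40 of 120.

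The day 200 chips also stood apart from each other. Between them, 448 genes (5.5%) were at least 4-fold higher in the cones of chip b and 136 (1.67%) in those of chip a. A gene was therefore counted only where both chips lay on the same side. Against day 60, chip a alone gave 375 higher and 546 lower genes, and chip b alone 468 and 259. The median difference over all 8139 genes was 0.11 log2 units for day 90 minus day 60, 0.10 for chip b minus day 60 and 0.13 for chip b minus chip a. The counts also moved with the cells taken as cones: leaving out the cones with at least 5 reads in 3 mitotic genes, an alternative added after the data were seen, left 11 cones at day 60 and gave 448 higher and 136 lower genes, and asking for 4 of the 7 markers, which left 172 cones in all and 9 at day 60, gave 608 and 274.

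Phototransduction genes outside the rule were higher in the older cones. Of 21 listed genes 18 were in the table, and 14 of these stood above day 60 on both day 200 chips (beside 37.7% of all genes tested) and 1, OPN1SW, below. Their median difference, day 200 minus day 60, was 1.29 log2 units, with 1.28 for chip a and 1.40 for chip b, beside 0.04 over all genes and 0.85 for the same list in the other cells. The 4 genes PDE6C, CNGB3, GUCA1B and GUCA1C were past the 4-fold difference, which 2.52% of all genes tested were. OPN1LW, OPN1MW and GNAT2 were not analysed here.

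GNB3, the beta subunit of cone transducin (chr12:6839954-6847393 on GRCh38), was read in nearly all cones. It stood at 646 CPM in day 60, 748 in day 90 and 2216 and 1280.3 in day 200 (a, b) cones, and was read in 94.4, 97.7, 96.6 and 93.9% of cones. The other cells held 36.8, 143, 341 and 130.3 CPM. Its exact Poisson 95% interval at day 60 was 621 to 672 CPM, far narrower than the gap between chips a and b. Cones exceeded their own chip's other cells at each age, and the difference from day 60 was 1.77 (chip a) and 0.98 (chip b) log2 units.

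PDE6C, the catalytic subunit of cone phosphodiesterase, was not read in day 60 cones and stood at 27.9 CPM at day 90, and 19.9 and 75.5 on chips a and b, with reads in 19.5, 6.9 and 33.3% of cones. CNGB3, a subunit of the cone channel, had 0 CPM at day 60, 19.6 at day 90, and 85 and 62.4 on chips a and b. The other cells held 0, 47.8, 26 and 6.71 CPM of CNGB3. At day 90 it was thus higher outside the cones, with reads in 18.2% of the other cells and 13.5% of cones. GUCA1C, a cyclase activator of cones, was at 0, 34.6, 166 and 57.4 CPM, while the other cells held 0, 0.101, 10.8 and 0.35. A count of 0 in the summed day 60 cones allows up to 0.765 CPM by the counting of reads alone. By the counting of cells, no read in 18 cones allows a share of cones with a read of up to 16.7%. That is above the 6.9% of chip a cones with reads of PDE6C, the 13.8% with reads of CNGB3 and the 15.5% with reads of GUCA1B. It is also above the 12.1% of chip b cones with reads of GUCA1C. On the other day 200 chip the shares of PDE6C, CNGB3, GUCA1B and GUCA1C were 33.3, 21.2, 24.2 and 20.7%. For each of these genes, the absence at day 60 is thus within the counting of cells for 1 day 200 chip. GUCA1B, another activator, was at 0, 5.1, 26.3 and 36.1 CPM. These genes were read in a minority of cones at every age, and single cones held much of their day 200 reads. The highest cone of chip a and that of chip b held 54.5 and 34.7% of the reads of PDE6C, 69.2 and 50.3% of CNGB3, 84.6 and 41.4% of GUCA1B, and 54.6 and 77% of GUCA1C.

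Several photoreceptor genes were already high at day 60. Recoverin, RCVRN, a calcium sensor of both photoreceptors, stood at 723 CPM in day 60, 1024 in day 90 and 1141 and 2528 in day 200 (a, b) cones. Its median per cone was 119 and 1137 CPM in chip a and chip b, so the day 200 chips lay on both sides of day 60 (228). KCNV2, a potassium channel subunit of photoreceptors, stood at 186 CPM in day 60, 480 in day 90 and 463 and 456 in day 200 (a, b) cones. UNC119, a lipid-binding transport protein of photoreceptors, was at 942, 837, 2126 and 1451 CPM, RGS9, which speeds transducin shut-off, at 109, 97.7, 268 and 146, and its partner GNB5 at 121, 122, 209 and 204. CNGA3, the other cone channel subunit, was at 0, 12.5, 0 and 24.9 CPM, the cone opsin kinase GRK7 at 0, 0.228, 42.7 and 11.9, and the cyclases GUCY2D and GUCY2F at or below 0.951 CPM on every chip.

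The short-wavelength opsin OPN1SW was read in the younger cones only. Its level was 27.3 CPM at day 60 and 35.7 at day 90, with no read at day 200. These reads came from 1 of 18 cones at day 60 and 4 of 133 at day 90, and 1 day 90 cone held 840 of the reads, at 2621 CPM, with all 7 markers, 3610.4 CPM of ARR3 and none of THRB. The day 60 cell had 498 CPM of OPN1SW beside 265 of THRB. Of the day 200 cones, 0 of 58 (chip a) and 0 of 33 (chip b) had a read, which allows shares of cones with a read of up to 5.17 and 9.09%. It was also not read in any other cell of day 200, whereas 10 other cells at day 60 and 9 at day 90 had reads. Of 24156 rows with a gene symbol, 4958 had reads at day 60 or 90 and none in any day 200 cell, and 389 the reverse. Rows named by a number have the first pattern throughout, so a difference of age and one of naming or counting between runs cannot be told apart for OPN1SW. The study lists OPN1SW among the markers shown by antibody in sections of day 200 organoids. That is protein, in sections and not in these cells, and the absence of reads stands beside it without an explanation tested here.

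Transcription factors of photoreceptor fate lay on both sides of their day 60 level. Of 15 genes in the table, 8 stood above and 4 below day 60 on both day 200 chips, beside 37.7 and 33.6% of all genes tested. Their median difference was 0.24 log2 units. SAMD7, a photoreceptor repressor protein, was past the 4-fold difference upwards and ONECUT2, a factor of early retinal progenitors and neurons, downwards. Of all genes tested, 2.52% were past it upwards and 1.47% downwards.

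The thyroid hormone receptor THRB (chr3:24117153-24495756), which directs cones towards long- and medium-wavelength opsins, was highest in the youngest cones. Its level was 218 CPM in day 60, 75.8 in day 90 and 14.8 and 90.1 in day 200 (a, b) cones, and it was read in 77.8, 41.4, 17.2 and 33.3% of cones. Day 60 lay above the other chips, with differences of -3.49 (chip a) and -1.23 (chip b), so that chip a was past 4-fold and chip b was not. In the other cells it stood at 30.7, 27.4, 21.9 and 24.4 CPM. After each cell was thinned to 50000 reads, THRB was read in 72.2, 34.1, 12.1 and 30.3% of cones, the same order. A single cone held 30.1% of the day 60 reads.

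RXRG (chr1:165400922-165445355), the retinoid receptor of cones, was higher in cones than in the summed other cells of the same chip at every age. It stood at 64.5 CPM in day 60, 98.9 in day 90 and 191 and 148 in day 200 (a, b) cones. The other cells held 5.13, 22.3, 11.8 and 6.32 CPM. Cells with rod genes and without the cone markers held 56.5 CPM at day 90, and 1.37 and 0.606 on chips a and b. Cells with both the cone markers and rod genes held 157 CPM at day 90, above the cones, and 1.84 and 1.36 on chips a and b. OTX2 differed little between ages, at 505 CPM in day 60, 653 in day 90 and 598 and 601 in day 200 (a, b) cones. NEUROD1, a factor of photoreceptor differentiation, was read in every day 60 cone and stood at 1029.7 CPM in day 60, 394 in day 90 and 487 and 785 in day 200 (a, b) cones. ONECUT2 was at 102 CPM in day 60, 73 in day 90 and 7.22 and 6.22 in day 200 (a, b) cones, both day 200 values being below both younger ones, while the other cells held 115, 119, 76.2 and 21.3 CPM. SAMD7 was at 0.51 CPM in day 60, 57 in day 90 and 108 and 91.4 in day 200 (a, b) cones.

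CRX itself was sparsely read. It stood at 13.5 CPM in day 60, 18.5 in day 90 and 26.6 and 43.3 in day 200 (a, b) cones, with reads in 16.7, 13.5, 10.3 and 33.3% of cones and in 3.57, 7.2, 2.01 and 5.75% of the other cells. At least 5 reads were counted in 11.1, 7.52, 5.17 and 24.2% of cones. LHX4, a factor of photoreceptor precursors, stood at 24.2, 88, 40.9 and 70.3 CPM, PRDM1, which favours photoreceptor over bipolar fate, at 19.1, 71.4, 27.9 and 36.1, and ISL2, a LIM homeobox factor, at 6.63, 28.8, 8.83 and 21.8. In each of these 3 genes day 90 was the highest of the chips.

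Of 10 genes of the thyroid hormone pathway, THRB included, 6 were lower in cones than in the other cells on all 4 chips. The medium contained T3 at every age. The receptor THRA stood at 31.6 CPM in day 60, 31.5 in day 90 and 39.3 and 48.4 in day 200 (a, b) cones, against 38.1, 53, 77.6 and 81 CPM in the other cells. DIO3, which inactivates the hormone, was at 9.69, 16.9, 32.7 and 8.84 CPM in cones and 45.5, 49.9, 146 and 69.1 in the other cells. CRYM, which binds the hormone in the cytosol, was not read in day 60 cones and stood at 23.7, 24.2 and 18.3 CPM later, below the 57.1, 202 and 158 of the other cells. The median difference of all 10 between day 200 and day 60 was 0.52 log2 units in cones and 1.01 in the other cells.

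Genes of the outer segment, the membrane stack that holds the opsin, and of the cilium that supports it were higher at day 200 than at day 60 in 15 of 22 cases on both chips and lower in 3, beside 37.7% and 33.6% of all genes tested. The median difference was 0.85 log2 units, with 0.75 for chip a and 0.72 for chip b, and in the other cells it was larger, 1.54. PRPH2 and RP1 were past the 4-fold difference on both chips, as 2.52% of all genes tested were.

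PRPH2, the tetraspanin that shapes the disc rim, stood at 6.12 CPM in day 60, 171 in day 90 and 232 and 235 in day 200 (a, b) cones. The day 60 level came from a single cone, and later chips had reads in 54.9, 53.4 and 51.5% of cones. RP1, a microtubule protein of the outer segment axoneme, was not read in any cell at day 60. It stood at 87 CPM in day 90 cones, and 127 and 272 on chips a and b. RP1 was thus first read at day 90. In the other cells PRPH2 was at 3.03, 28.1, 87.6 and 37.5 and RP1 at 0, 53.3, 156 and 72.4 CPM, and in cells with rod genes of chip a they reached 653 and 943 CPM.

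CDHR1, a cadherin of forming discs, stood at 124 CPM in day 60, 333 in day 90 and 710 and 327 in day 200 (a, b) cones. ABCA4, the retinoid flippase of the discs, was at 28 CPM in day 60, 117 in day 90 and 216 and 110.5 in day 200 (a, b) cones. Both were higher on both chips than at day 60, past 4-fold on chip a only. In the same order of chips RBP3, the retinoid-binding protein of the matrix around the segments, was at 22.2, 83.9, 75.9 and 99.2 CPM, and EYS, a matrix protein lost in a form of retinitis pigmentosa, at 52, 132, 110.5 and 195. A second group was already present at day 60: IMPG2, a proteoglycan of the same matrix, stood at 691 CPM in day 60, 339 in day 90 and 553 and 826 in day 200 (a, b) cones, PROM1 at 262, 389.6, 258 and 255 CPM and TULP1, a transport protein of the inner segment, at 135, 139, 179 and 141. These 3 differed between day 60 and either day 200 chip by less than 0.5 log2 units in each direction. Of their day 60 reads, a single cone held 40.4% for IMPG2, 33.7% for PROM1 and 32.2% for TULP1. The median of IMPG2 per cone was 370 CPM at day 60, 129 at day 90, and 276 and 547 on chips a and b. The ciliary genes RPGR, FAM161A and CEP290 also lay close to day 60, with differences of -0.20, -0.14 and 0.42 on chip a and -0.01, -0.11 and -0.32 on chip b.

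Ribbon synapse genes were above day 60 on both day 200 chips in 11 of 20 cases and below in 4 (beside 37.7 and 33.6% of all genes tested). Their median difference of 0.80 log2 units was uneven between chip a (1.09) and chip b (0.50). RIMS2, a scaffold of the active zone, was the 1 gene past 4-fold (of all genes tested, 2.52% were), at 235 CPM in day 60, 1019 in day 90 and 1706 and 1773 in day 200 (a, b) cones. The other cells held 91.5, 218, 608 and 338 CPM of it, and the list's median there was 0.39. STX3, the syntaxin of ribbon synapses, stood at 255 CPM in day 60, 524 in day 90 and 885 and 599 in day 200 (a, b) cones, and SLC17A7, the vesicular glutamate transporter of photoreceptors, at 152 CPM in day 60, 306 in day 90 and 535 and 261 in day 200 (a, b) cones. CTBP2, whose ribbon isoform builds the ribbon itself, was at 108, 240.4, 231 and 327 CPM and the giant scaffold PCLO at 76.7, 285, 204 and 376. Against these, BSN, another scaffold of the ribbon, and RIMS1 were lower at day 200, BSN at 41.5, 11.1, 2.77 and 12.9 CPM and RIMS1 at 29.3, 8.22, 0.173 and 15.3. SYT1, a vesicle calcium sensor, stood close to day 60, at 667, 559, 563 and 639. The calcium channel gene CACNA1F and its regulator CABP4 stayed below 6 CPM on every chip.

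Visual cycle genes, which regenerate the chromophore, were above day 60 on both chips in 9 of 12 cases, beside 37.7% of all genes tested. Their median difference was 0.89. RDH12, a retinol dehydrogenase of photoreceptors, was at 0, 13.5, 113 and 35.6 CPM and RDH10 at 0, 46.1, 67.3 and 74.2. None of the 12 genes was higher in cones than in the other cells on all 4 chips, and 5 were lower on all 4. RPE65, the isomerase of the retinal pigment epithelium, was read in cones at day 90 only, at 0.152 CPM.

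Glycolysis genes differed little with age. Of 21, 9 were above and 7 below day 60 on both chips, beside 37.7 and 33.6% of all genes tested. Their median difference was 0.20. HK2, the hexokinase of photoreceptors, stood at 182 CPM in day 60, 141 in day 90 and 353 and 206 in day 200 (a, b) cones, in the other cells at 144, 93.2, 108 and 110.5. PKM, pyruvate kinase, was at 405, 467, 951 and 789 CPM, the neuronal enolase ENO2 at 1009, 928, 1863 and 1209 and ALDOC, an aldolase of neurons and retina, at 19.4, 101, 115 and 50.1. GAPDH, at 80.3, 51.5, 17.3 and 58.2 CPM, has many near-identical processed copies between which reads can be lost, so its level is uncertain.

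Genes of the immature neuron were for the most part lower in day 200 cones. Of 20 genes, 16 stood below day 60 on both day 200 chips and 2 above, beside 33.6 and 37.7% of all genes tested. Their median difference was -1.15 log2 units (-0.74 on chip a, -1.26 on chip b). STMN1, a microtubule-destabilising protein of growing neurons, was at 3546 CPM in day 60, 965 in day 90 and 909.7 and 854 in day 200 (a, b) cones. STMN2 was at 760.1 CPM in day 60, 208 in day 90 and 48.5 and 225 in day 200 (a, b) cones, the neuronal microtubule protein DCX at 409.6, 166, 109.8 and 128 CPM, and HES6, a factor of neurogenesis, at 703, 332, 269 and 241. For STMN1, DCX and HES6 the larger step on the log2 scale lay between day 60 and day 90. The other cells showed like differences, with STMN1 at 2007, 619.8, 882 and 719 and DCX at 464, 252, 113 and 141 CPM, and a median for the list of -0.72. ATOH7, the factor that opens the neurogenic programme, stood at 41.8 CPM at day 60 and 2.32 at day 90 and was not read in day 200 cones. The 2 genes above were PCBP4 and GADD45G, the latter at 363, 285, 636 and 378 CPM.

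**Figure D3:**
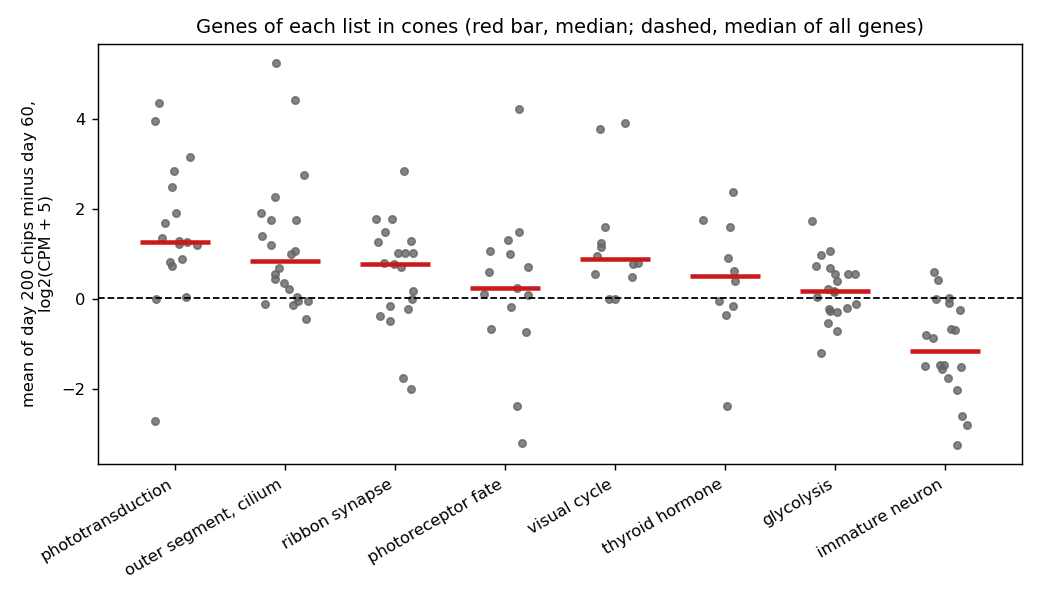
Difference between the mean of both day 200 chips and day 60 on the log2(CPM + 5) scale for every gene of 8 lists in cones. Grey points are genes, red bars list medians and the dashed line the median of all 8139 genes (0.04). Medians run from 1.29 for phototransduction to -1.15 for immature neurons.

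By size alone, the 10 genes outside the rule with the largest difference upwards from day 60 to the nearer day 200 chip were RP1, DEFB119, PRPH2, CNGB1, SAMD7, BHLHE41, RAX2, ADAMTS3, ANXA11 and RDH10. RAX2, a homeobox factor of photoreceptors, was not read in any cell at day 60 and stood at 47.2, 106 and 80.1 CPM in cones of the later chips, against 8.35, 17 and 6.63 in the other cells. DEFB119, a beta-defensin, was at 0, 27.7, 149 and 108 CPM. CNGB1, the channel subunit known from rods, was at 0.255 CPM in day 60, 61 in day 90 and 88.2 and 149 in day 200 (a, b) cones. BHLHE41, a clock-related repressor, stood at 4.33, 63.1, 184 and 158 CPM in cones and 50.6, 63.7, 126 and 239 in the other cells. Of the 205 higher genes, 55 had no read in day 60 cones, and 27 were past the fold in the other cells too. In 13 no cell of day 60 had a read, and 3 of the higher rows carry an Ensembl identifier in place of a symbol. Rows with such identifiers have reads only at day 200, so for them age and naming cannot be told apart.

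The 10 largest differences downwards were MT-TL1, MT-TV, NUSAP1, TNFSF10, PMM2, CCDC60, TPX2, C15orf59-AS1, VTRNA1-3 and TOP2A. Of the mitochondrial transfer RNAs, MT-TL1 stood at 347 CPM in day 60, 4.91 in day 90 and 2.77 and 4.91 in day 200 (a, b) cones and at 382, 4.98, 3.77 and 6.81 CPM in the other cells. The other cells thus differed by as much as the cones. NUSAP1, TPX2 and TOP2A are mitotic genes. TOP2A, which untangles chromosomes, stood at 197 CPM in day 60, 193 in day 90 and 0.52 and 12 in day 200 (a, b) cones, and 57.2% of its day 60 reads and 57.2% of its day 90 reads came from 1 cone each. TPX2, a spindle protein, was at 69.8, 85.1, 0.404 and 0 CPM. When cells with 2 or more rod genes were let in, all 3 calls were lost: the difference of the nearer chip was 0.17 for TPX2, -0.31 for TOP2A and -1.47 for NUSAP1. PMM2, a mannose phosphate enzyme, and TNFSF10, a death ligand, each drew over 70% of their day 60 reads from 1 cone (71.5 and 78.9%). C15orf59-AS1 is an antisense gene, and no strand setting of the count is stated, so its reads cannot be told apart from those of its partner.

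Markers of other retinal cells were present in the cones and are given for the whole lists. Of the 7 mitotic genes, all were read in cones of days 60 and 90 and on chip a, and UBE2C, NUSAP1 and TPX2 were at 0 on chip b. At least 3 of them reached 5 reads in 7 of 18 cones at day 60 (38.9%), 8 of 133 at day 90 and none at day 200, against 22.5% of the other cells at day 60. Their summed level in cones was 627, 586, 13.6 and 37.8 CPM over the 4 chips, and 1808, 619, 519.8 and 147 in the other cells. Their part in the differences between ages was not tested beyond the counts given above without these cones.

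All 14 Müller glia genes were in the table, and all but TF and RLBP1 at day 60 were read in cones of every chip. The list summed to 2946, 3212, 3461 and 2835 CPM in cones, and to 4975, 7416, 13254 and 12313 in the other cells, and 12 of 14 genes were lower in cones on all 4 chips. SPP1, WIF1, GPX3 and TF of this list were higher by 4-fold or more in the cones of both day 200 chips than at day 60. Of all genes tested, 2.52% were. GPX3, a secreted peroxidase, stood at 14.3 CPM in day 60, 33.9 in day 90 and 381 and 268 in day 200 (a, b) cones and at 21.6, 56.4, 2437 and 564 CPM in the other cells. TF, transferrin, stood at 0, 18.2, 257 and 52.1 CPM in cones, and 1 cone held 84.4% of its chip a reads. The part of RNA from other cells in these levels was not tested.

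Of 10 genes of retinal ganglion cells all were read in day 60 cones, 7 in day 90 cones, and 6 and 7 in those of chips a and b. At least 3 of them reached 5 reads in 66.7% of day 60 cones against 43.2% of the other cells, and in 13.5, 0 and 12.1% of cones later. POU4F2, a defining factor, was at 5.1, 0, 0 and 5.89 CPM, ISL1 at 17.3, 0, 0.0577 and 0 and SLC17A6 below 1 on every chip. The list, of which DCX, STMN2 and GAP43 are also immature neuron genes, summed to 1394, 501, 208 and 433 CPM in cones and 1799, 684, 367 and 644 in the other cells. Of 8 bipolar genes, 5 were read at day 60 (TRPM1, CABP5 and PCP2 at 0), 7 at day 90 (PCP2 at 0), and 8 and 7 on chips a and b (GRIK1 at 0), summing to 108 to 241 CPM against 101 to 367 in the other cells. Of 9 horizontal and amacrine genes, 7 or 8 were read on each chip, LHX1 being at 0 after day 60, TFAP2B at day 60 and SLC32A1 on all chips but day 90, summing to 29.1 to 123 CPM against 76.5 to 226. The 8 genes of the pigment epithelium summed to 343, 971, 284 and 459 CPM in cones, with RPE65 at 0 except at day 90, and to 251, 2907, 775 and 477 in the other cells. At least 3 of these 8 reached 5 reads in 0, 15.8, 0 and 12.1% of cones, against 3.39, 26.9, 5.37 and 10.9% of the other cells. At day 90 the pigment genes PMEL and DCT stood at 184 and 430.2 CPM in cones.

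Matrix genes were among those furthest apart between the day 200 chips. Among the 5 genes furthest towards chip b were COL1A1, COL3A1 and TGFBI, with PCP4 and TMEM223. COL1A1, a collagen of connective tissue, was at 7.14 CPM in day 60, 85.6 in day 90 and 1.33 and 359 in day 200 (a, b) cones, and in the other cells at 146, 423, 166 and 426 CPM. One cone held 73.8% of its reads on chip b. The 8 matrix genes summed to 1105, 565, 116 and 2296 CPM in cones and to 1773, 5148, 1547 and 6842 in the other cells, with APOD and LUM at 0 in cones of day 60 and chip a. At least 3 of the 8 reached 5 reads in 11.1, 10.5, 5.17 and 12.1% of cones, against 8.04, 17.2, 2.68 and 19.3% of the other cells. Towards chip a stood PEMT, B4GALT1, BCS1L, NAA30 and ELMOD3, with PEMT, an enzyme of phosphatidylcholine synthesis, at 194 against 6.66 CPM. Both chips are of the same age.

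Set against all other cells of the same chip, the genes outside the rule with the largest difference in the cones' favour, taken as the smallest of the 4 chips, were AC110716.1, LMOD1, CPLX4, EGFLAM, GNB3, PEX5L, RBP4, TULP1, NANOS1 and AC022893.2. Most other cells lack rod genes, so this ranking does not separate cones from rods. At day 90, chip a and chip b, GNB3 stood at 748, 2216 and 1280.3 CPM in cones. It was at 430, 991 and 521 in cells with rod genes alone, and at 774, 2243 and 1193.5 in those with both. TULP1 was at 139, 179 and 141 in cones, 38, 135 and 44.2 with rod genes alone, and 198, 139 and 114 with both. EGFLAM, or pikachurin, which links photoreceptors to bipolar dendrites, stood at 94.1 CPM in day 60, 153 in day 90 and 236 and 234 in day 200 (a, b) cones and at 4.87, 19, 39.5 and 15.8 CPM in the other cells. CPLX4, the complexin of photoreceptor ribbons, was at 128, 238, 354 and 201 against 4.38, 32.8, 60.5 and 17.6. PEX5L was at 182, 296, 654 and 613 against 25.9, 56.6, 86 and 38.3, and LMOD1, an actin nucleator known from smooth muscle, at 275, 345, 607 and 283 against 9.76, 57.7, 45.6 and 37.2. RBP4, the plasma retinol carrier, was lower later: it stood at 471 CPM in day 60, 74.1 in day 90 and 98.7 and 89.8 in day 200 (a, b) cones, past 4-fold lower on both day 200 chips, and at 8.35, 11.7, 12.5 and 0.937 in the other cells.

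Cones were also set beside the cells with at least 2 rod genes and without the cone markers, 32 at day 90, and 26 and 16 on chips a and b. The genes named here were chosen after their values were seen, from the 15 genes furthest apart in each direction on all 3 chips. CA2, a carbonic anhydrase, stood at 327, 1310.4 and 663 CPM in cones of day 90, chip a and chip b, and at 38.3, 176 and 44.5 in the rod-gene cells. GUCA1C was at 34.6, 166 and 57.4 and not read in the rod-gene cells, SLC24A4, an exchanger of the SLC24 family, at 35.9, 75.5 and 127 against 0, 12.9 and 0.303, and CACNA1B, a neuronal calcium channel, at 28.2, 30.3 and 58.1 against 0.545, 0.759 and 0.303. Towards the rod-gene cells lay ROM1, a partner of PRPH2 in the disc rim, at 19.7, 75.9 and 55.1 CPM in cones against 207, 1116 and 225, and PDE6B, a subunit of rod phosphodiesterase, at 39, 74.1 and 30.8 against 155, 252 and 101. Of the rod genes not in the rule, PDE6G was at 0, 4.53, 68.9 and 14.6 CPM in cones of the 4 chips and PDE6A, CNGA1 and SAG were read in at most 5.56% of the cones of any chip.

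Among the 133 cones of day 90, the number of markers with 5 reads went with the levels of several genes the rule did not use, though not of all. GNB3 stood at 423 CPM in the 38 cones with 3 markers, 471 in 32 with 4, 755 in 29 with 5 and 1219 in 34 with 6 or 7. KCNV2 was at 151, 318, 692 and 693 CPM in the same order, SLC17A7 at 157, 225, 296 and 496, and PRPH2 at 40.1, 82.5, 279 and 257. CNGB3 was without such an order, at 32.9, 18.1, 29.8 and 1.56, as was CNGB1 at 67.3, 33.5, 76.2 and 65.1. Of immature neuron genes, DCX ran the other way, at 236, 209, 142 and 95 CPM, as did STMN2 at 271, 258, 167 and 154. STMN1 and HES6 did not, at 736, 1069, 880.5 and 1136 and at 296, 347, 359.8 and 327. The mitotic gene TOP2A was read chiefly in cones with 3 or 4 markers, at 333 and 488 CPM against 8.42 and 4.81. VIM, a filament gene of progenitors and glia, was at 1558, 863, 1142 and 642, highest with 3 markers. RXRG showed no order, between 85 and 132 CPM. The median depth was 138408, 175843, 205673 and 216386 reads a cell, so deeper cells had more markers, and the part of depth and of the mitotic cells in this order was not tested. All these cells come from 1 chip.

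**Figure D4:**
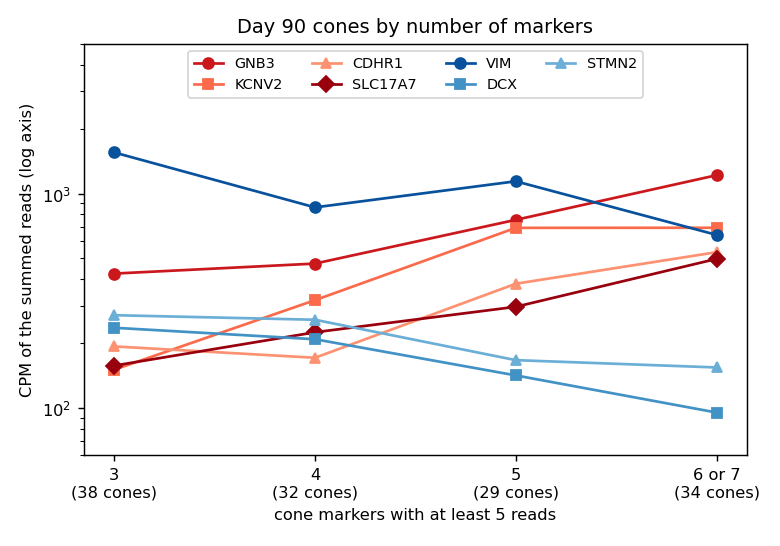
Levels in CPM (log axis) of 7 genes outside the rule in the summed day 90 cones, grouped by how many of the 7 cone markers had at least 5 reads. Lines join the 4 groups of cells of 1 chip. GNB3 goes from 423 to 1219 CPM and DCX from 236 to 95.

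The organoids carried a GFP reporter, and a pair of rows that name no gene of the annotation was read in a larger share of cones than of the remaining cells on every chip, both rows picked after their values were seen. One, called GFP-Spike, had reads only at day 200, in 93.1% of the cones of chip a and 84.8% of those of chip b. It was read in 31.5 and 15.6% of the remaining cells, which lay below the limits of the rule for cone markers and for rod genes. They were not free of these genes: over all chips 285 of the 1610 remaining cells had 1 cone marker and 101 had 2. The other row of the pair, named by a number, had reads only at days 60 and 90. It was read in 94.4 and 94% of cones against 11.8 and 42% of the remaining cells. Since such cells are many, they held 840 of the 1257 reads of the numbered row at day 60. Most cones had reads in 1 of these rows at each age, whereas CRX was read in at most 33.3% of them.

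**Figure D5:**
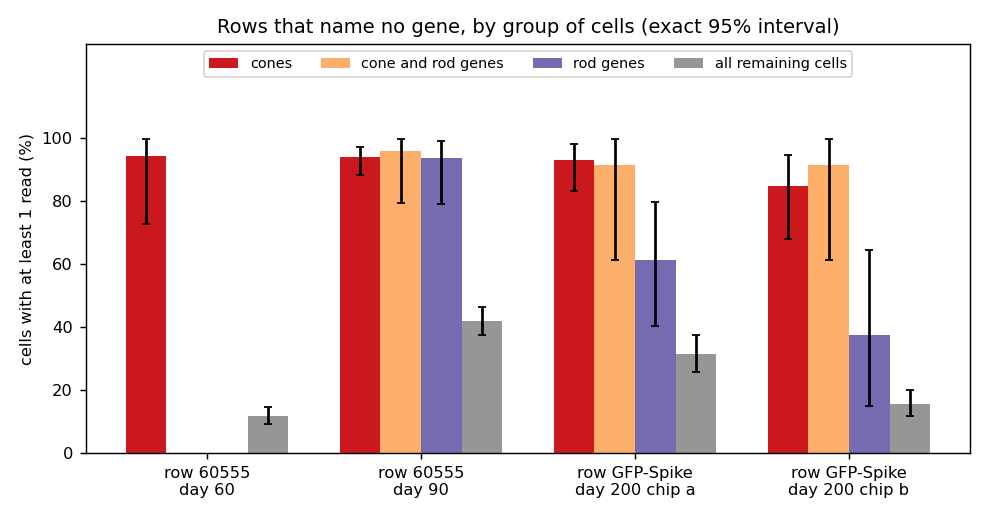
Percent of cells of each kind with reads in a row that names no gene, the numbered row at days 60 and 90 and GFP-Spike on both day 200 chips, with exact binomial 95% intervals. Cones stand at 84.8 to 94.4%. The remaining cells, below the limits of the rule for cone markers and for rod genes, stand at 11.8 to 42%.

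Of 12 listed genes of the stress response 10 were in the table, and 7 were above day 60 on both day 200 chips. Of all genes tested, 37.7% were. The median difference of the list was 1.08 log2 units. DDIT3, a factor of the unfolded protein response, stood at 149 CPM in day 60, 259.6 in day 90 and 364 and 272 in day 200 (a, b) cones and 84.1, 184, 253 and 195 CPM in the other cells. FOS, an immediate early gene that dissociation of tissue can raise, was at 126 CPM in day 60, 602 in day 90 and 359 and 369.8 in day 200 (a, b) cones, and in the other cells at 305, 1245, 973 and 1227. The part of handling in the levels of these genes was not tested.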

How the data were processed

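Per the labels and the study's methods, the authors trimmed reads with Trimmomatic 0.33, aligned them with STAR 2.4.0 to GRCh38.p7, counted them per gene with HTSeq 0.6 (strand setting not given in the sources used here) and removed poor cells and rare genes with Scater. Deposited by them were raw read counts, without molecular identifiers, of 24415 rows in 1976 cells. The limits for keeping cells differed between days, as given above. A column sums to 3414268 to 7994770 reads. Rows that name no gene, 166 numbers and 1 called GFP-Spike, hold 0.034% of reads and were kept out of totals. The 92 rows with an Ensembl identifier have reads only at day 200.

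Cells were mapped to chips by the deposited sample names. Reads of the cones of a chip were summed and scaled to CPM, and log2(CPM + 5) was compared; intervals are exact binomial (Clopper-Pearson), and a count of 0 allows 3 counts. No test was made, so no p-value is given. A gene entered if the cones of 1 chip had 20 CPM of it and 20% of them a read, and counted with 2 log2 units on both day 200 chips. Detection was compared after thinning cells to 50000 reads (6 shallower cells, 1 a cone, left out). The genes named are those of fixed lists, the 10 largest differences in each direction, the 10 leading against other cells, and the 5 furthest apart between the day 200 chips in each direction, unless the text says otherwise. Members and lists were chosen with earlier results of these data known. Positions of genes follow GENCODE 44 (GRCh38). The steps were run on simulated cones with large changes planted in well-read genes only. Calls near the fold, in sparsely read genes or under a difference between chips were not tested by it. Python 3.11.15, pandas 2.3.3, scipy 1.17.1 and scanpy 1.11.5 (scrublet, chip by chip) were used. Alternatives were other thresholds of the rule, pseudocounts, no filter, means over cells, doublet removal and leaving out a day 200 chip.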

Additional observations from a re-analysis of the deposited data

Results flagged for a closer look

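The row named GFP-Spike names no gene of the annotation and was in no comparison, yet most day 200 cones had reads in it. It was read in 54 of 58 cones on chip a (93.1%, exact binomial 95% interval 83.3 to 98.1%) and 28 of 33 on chip b (84.8%, 68.1 to 94.9%), at 466 and 194 CPM. The cells with cone markers and rod genes had it in 11 of 12 on each chip, those with rod genes alone in 16 of 26 and 6 of 16, and all remaining cells in 82 of 260 (31.5%) and 50 of 320 (15.6%). Cones held 50.5% of its 19491 reads. No cell of day 60 or day 90 had a read in it.

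At days 60 and 90 a row named only by a number was read in the same groups of cells and not at day 200. It was read in 17 of 18 cones at day 60 (94.4%, 72.7 to 99.9%) and 125 of 133 at day 90 (94%, 88.5 to 97.4%), at 106 and 479.7 CPM. At day 90 30 of 32 cells with rod genes had it, and of the remaining cells 11.8% at day 60 and 42% at day 90. All 166 rows named by a number have reads only at days 60 and 90, and all 92 rows named by an Ensembl identifier only at day 200. What these rows stand for is not given in the sources used here. For comparison, CRX was read in 6 of 58 and 11 of 33 day 200 cones. Each of these 4 results is listed because the signal lies in data outside the main measurement and above the 3 counts that a count of 0 allows.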

How the results depend on the processing

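Cones numbered 18 at day 60 and 33 on chip b, which with the depth of reads limits these values. The shares followed the rule: day 60 had 5.36% with 2 markers asked for and 1.56% with 4, day 90 27.1 and 14.4%, and chip b 12.9 and 6.04%. Chip a had 23.6% with 2. With 1 read asked of each marker, day 90 had 29.5% and chip a 28.4%. Day 90 had 17.1% with 10 reads, 23.9% without the rod clause and 16.6% after thinning. With no rod gene allowed, day 90 had 15.1% and chip a 11.8%. Day 60 stayed the lowest and day 90 the highest share under each of these settings.

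The genes past 4-fold numbered 378 higher with a pseudocount of 1 CPM and 30 higher and 29 lower with 20, 288 lower without the filter, 608 and 274 with 4 markers asked for, and 448 higher without the cones with 3 mitotic genes, a setting chosen after seeing the data. With 1 day 200 chip left out they ranged from 375 to 468 higher and from 259 to 546 lower. Leaving out each gene's highest cell of each chip, also added later, gave 259 higher genes, 129 of them among the 205, and leaving out rows without a read on some day gave 192 higher and 118 lower. Of 20 named movers, TPX2 turned to 0.17 without the rod clause, and NUSAP1 came to -1.47 and TOP2A to -0.31 there, TNFSF10 to -0.66 with 4 markers, and CCDC60 to -0.13 without the mitotic cones.

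The median of the phototransduction genes was 1.10 with a pseudocount of 20, 1.42 as a mean over cells, 1.49 without the rod clause, 1.42 without the highest cells and 1.67 without the mitotic cones. Leaving out a chip gave 1.28 to 1.40. That of the outer segment and cilium genes was 1.05 and 0.73 with pseudocounts of 1 and 20, 0.97 as a mean over cells, 0.71 with 10 reads, 0.70 with 4 markers, 1.01 without the rod clause, 1.04 without the highest cells, 1.13 without the mitotic cones, and 0.72 to 0.75 with a chip left out. All kept their sign, as did the ribbon synapse median, which moved by less than the spread between chips. No paired analysis was possible because the result comes from no test.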

Other observations

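The cells left out by the rod clause, with cone markers and at least 2 rod genes, were read for cone and rod genes alike. In the order day 90, chip a, chip b, GNB3 stood at 774, 2243 and 1193.5 CPM in them and RCVRN at 1374, 3145 and 5637. NRL stood at 525, 1764 and 1190.1 CPM, ARR3 at 593, 732 and 109.5, and RXRG at 157, 1.84 and 1.36. Such cells were not seen at day 60. Whether they are single cells was not tested.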
